A study of Mus musculus with 8 samples.

Results

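The serum amyloid A family of the mouse consists of 4 protein-coding genes, Saa1, Saa2, Saa3, and Saa4, which were taken by name from the 48709 genes listed for each library. RNA-Seq was carried out on whole pancreas of 8-week-old male mice, and there were 2 libraries in each of 4 groups. WT mice received saline (WT saline) or palmitoleic acid (POA) and ethanol (WT FAEE-SAP), a model of alcoholic severe acute pancreatitis driven by fatty acid ethyl esters. Mice with the Pfkfb3 cKO genotype, in which Pdx1-Cre removes floxed Pfkfb3 (Pfkfb3 fl/fl) from the pancreatic lineage, received saline (cKO saline) or POA and ethanol (cKO FAEE-SAP). According to the methods of the study, mice were fasted before induction, tissue was taken after 24 hours, and FAEE-SAP mice also received buprenorphine with the first injection. Whether the saline mice received buprenorphine is not given in the sources used here. This Cre, driven by the Pdx1 promoter, acts in acinar, ductal, and islet cells, so leukocytes, fibroblasts, and fat in the tissue keep Pfkfb3. Nothing in the labels says which mouse each library came from, so the p-values measure the spread between these libraries, which may in part be technical.

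Serum amyloid A proteins are small lipid-binding proteins of the acute-phase response. Saa1 and Saa2 encode the circulating acute-phase forms, which the liver releases on high-density lipoprotein after IL-6, IL-1, and TNF act through STAT3, NF-kB, and C/EBP factors. Saa3 is the form that many tissues outside the liver make during inflammation, among them fat, macrophages, and epithelia. Saa4 is a constitutive form made mainly by the liver. Secreted serum amyloid A can attract neutrophils and monocytes through formyl peptide receptors, and it is a protein marker of severity in acute pancreatitis.

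Saa1, Saa2, and Saa3 were each more than 10-fold higher in WT pancreas after FAEE-SAP than in any other group, and Saa4 was at or near 0 throughout. In cKO pancreas with FAEE-SAP, Saa3 was 47.8-fold lower than in WT, Saa2 33.2-fold lower, and Saa1 12.6-fold lower, as ratios of the group means of scaled RPKM. The ratio of Saa2 rests on 14 and 4 reads in the cKO libraries. Levels are given as RPKM, the reads of a gene per kilobase of exon and per fixed number of reads in the library, after each library was scaled by the median of its ratios to the geometric mean over 10985 genes. RNA of bulk tissue does not separate fewer cells of a type from less RNA per cell.

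The libraries held 22.9 to 37.7 M reads, and the scaling factors ran from 0.621 to 2.02. Scaled RPKM of Pfkfb3 itself was 0.880 to 2.10 with saline and 1.74 to 3.21 with FAEE-SAP, and the genotypes overlapped under both treatments. A value summed over all exons of Pfkfb3 does not show the loss of a few floxed exons, so it does not check the genotype labels. The tissue label was met by acinar markers, such as the carboxypeptidase Cpa1, whose lowest scaled RPKM was 4239. cKO saline replicate 1 stood apart from the other libraries by its enterocyte markers, which summed to 26.6 scaled RPKM there and to at most 0.292 in the other 7 libraries. Saa1 and Saa2 had no reads in that library, and Saa3 was at 5.06 scaled RPKM there, its highest value among the saline libraries.

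**Figure D1:**
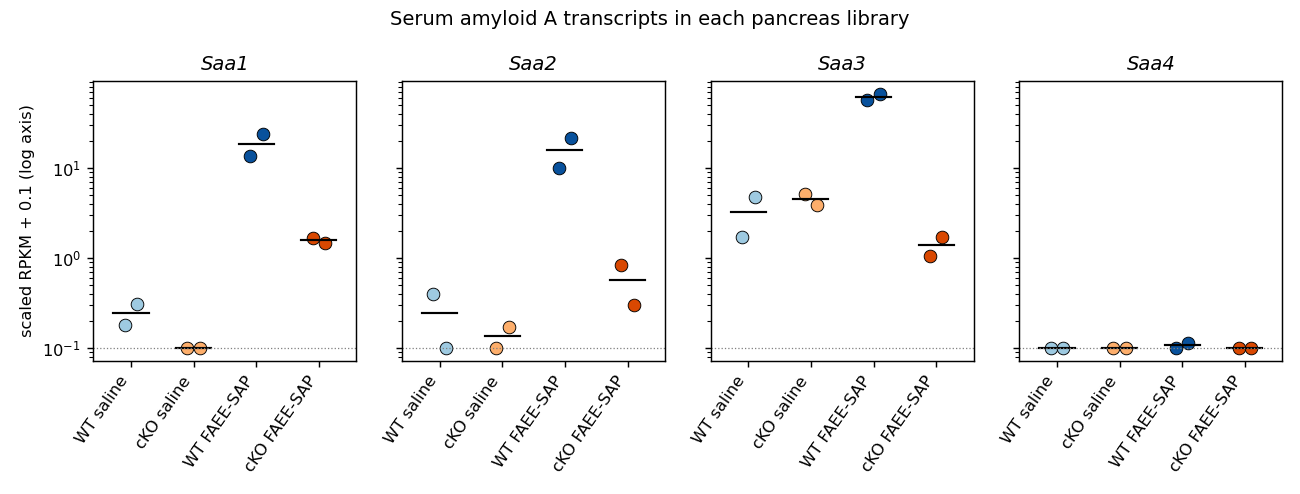
Scaled RPKM plus 0.1 on a log axis for each Saa gene in the 4 groups, where each point is 1 library, each bar is the mean of 2 libraries, and the dotted line marks a value of 0. The WT FAEE-SAP libraries lie above all others for Saa1, Saa2, and Saa3, and the cKO FAEE-SAP libraries lie below both cKO saline libraries for Saa3 only.

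The Saa genes lie side by side on chromosome 7 of GRCm38, within 42316 bases from 46711998 to 46754313. By GENCODE vM21 the order is Saa3 (46711998 to 46715700, minus strand), Saa4 (46727998 to 46732603, minus strand), the pseudogene Saa-ps, Saa1 (46740497 to 46742980, minus strand), and Saa2 (46751790 to 46754313, plus strand). Saa1 and Saa2 are head to head and are near copies of each other. Their main transcripts, of 609 and 606 bases, have 572 identical and 34 differing bases when aligned, an identity of 94.4% without gaps. Saa3 shares 82.1% of aligned bases with Saa1. Of the 560 windows of 50 bases in the Saa1 transcript, 13.2% are also in a Saa2 transcript, but no window of 100 bases is shared between any pair of Saa genes. Reads from the shared stretches can be assigned to either gene, so the division of reads between Saa1 and Saa2 is uncertain, while their sum is less so. The read length is not given in the sources used here.

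The promoters of the 3 genes that were expressed are shown because the genes changed in the same comparisons. Each line runs from 250 to 51 bases before the transcription start in the RefSeq table for GRCm38.p6, 5′ to 3′ along the gene, and capitals mark matches to the C/EBP letters TTGCNNAA on either strand.
Saa1 promoter, chr7:46743031-46743230, minus strand: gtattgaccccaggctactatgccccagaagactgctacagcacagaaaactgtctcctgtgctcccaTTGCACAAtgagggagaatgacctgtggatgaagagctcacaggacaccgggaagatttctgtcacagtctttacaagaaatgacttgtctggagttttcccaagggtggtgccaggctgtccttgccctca
Saa2 promoter, chr7:46751583-46751782, plus strand: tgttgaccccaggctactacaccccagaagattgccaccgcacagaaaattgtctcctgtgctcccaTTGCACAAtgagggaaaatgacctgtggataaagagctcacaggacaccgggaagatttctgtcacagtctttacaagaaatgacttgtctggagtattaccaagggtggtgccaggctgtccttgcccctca
Saa3 promoter, chr7:46715727-46715926, minus strand: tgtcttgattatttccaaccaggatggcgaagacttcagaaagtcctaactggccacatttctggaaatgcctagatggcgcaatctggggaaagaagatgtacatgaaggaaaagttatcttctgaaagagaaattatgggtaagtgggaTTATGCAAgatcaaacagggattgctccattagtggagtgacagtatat
All 4 members had an entry in the RefSeq table. Over the 250 bases before the start, Saa1 and Saa2 were identical at 238 aligned bases and differed at 11 (95.6% identity without gaps), and Saa1 and Saa3 were identical at 75.1% of the bases aligned. The C/EBP letters were found once in Saa1, 182 to 175 bases before the start, once in Saa2, 183 to 176 bases before the start, once in Saa3, 99 to 92 bases before the start and on the other strand, and in 2 places in Saa4. These letters occur in 9.55% of the 27025 promoters of the same length in the table. They were chosen after the promoters were seen, and Saa1 and Saa2 are near copies, so nothing is read from that share. The NF-kB consensus (3.75% of promoters), the STAT letters TTCNNNGAA (7.18%), and the TATA box letters TATAAA (13.0%) had no match in these windows of the 4 genes. No match says only that these letters are not in these windows.

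With FAEE-SAP, cKO was compared with WT in the inflamed pancreas. According to the methods of the study, WT mice were purchased, whereas the floxed line was generated for the work and crossed to Cre mice. The deletion therefore cannot be told apart here from the source of the mice, the Cre, or the floxed alleles. Saa3 was at 56.6 and 66.4 scaled RPKM in the WT libraries and at 0.943 and 1.63 in the cKO libraries. Saa1 was at 13.3 and 23.8 in WT and at 1.59 and 1.36 in cKO. Saa2 was at 10.01 and 21.4 in WT and at 0.743 and 0.203 in cKO. For each of these genes both WT libraries were higher than both cKO libraries, as was so for 25.3% of the genes tested, and the 2 WT libraries differed more from each other for Saa1 and Saa2 than for Saa3.

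Saa1, Saa2, and Saa3 fell in cKO, that is, they passed an adjusted p of 0.05 together with a 2-fold change, where 1.17% of the 11008 genes tested were called and 0.354% were called lower. The log2 fold change of Saa3, on the scale of log2(scaled RPKM + 0.1), was -5.51 (SE 0.29, limma adjusted p = 0.0109), where p-values of the limma model were adjusted over all genes tested by the Benjamini-Hochberg method. It was the lowest value of all genes tested. Saa2 had the second lowest value, -4.87 (SE 0.58, limma adjusted p = 0.0288). It reached the minimum for testing in both WT libraries, where it is high, and in 1 cKO library, so its call follows in part from the filter. Saa1 was ninth lowest, at -3.51 (SE 0.31, limma adjusted p = 0.0162). The 95% intervals were -6.23 to -4.80 for Saa3, -6.29 to -3.44 for Saa2, and -4.29 to -2.73 for Saa1. The calls depended on single libraries. Without WT FAEE-SAP replicate 1 the adjusted p was 0.0919 for Saa1, 0.123 for Saa2, and 0.0919 for Saa3, and without WT FAEE-SAP replicate 2 it was 0.113, 0.256, and 0.113. Without cKO FAEE-SAP replicate 2 it was 0.0562 for both Saa1 and Saa2, and Saa3 was still called (0.0107). The fold changes themselves stayed between -3.10 and -5.88 in these fits. That of Saa2 depended on the cKO libraries, at -5.60 without cKO FAEE-SAP replicate 1 and -4.13 without replicate 2. With a pseudocount of 1 it was -3.44 for Saa2 and -4.78 for Saa3. With no filter on low values none of the 19535 genes was called and the adjusted p was 0.0546 for Saa3, 0.0801 for Saa1, and 0.127 for Saa2, and with voom, a weighted limma model on reads worked out from the RPKM, it was 0.0541 for Saa1 and 0.0779 for Saa2. Without the intensity trend, the term that lets the spread vary with the level, it was 0.0517 for Saa2.

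**Figure D2:**
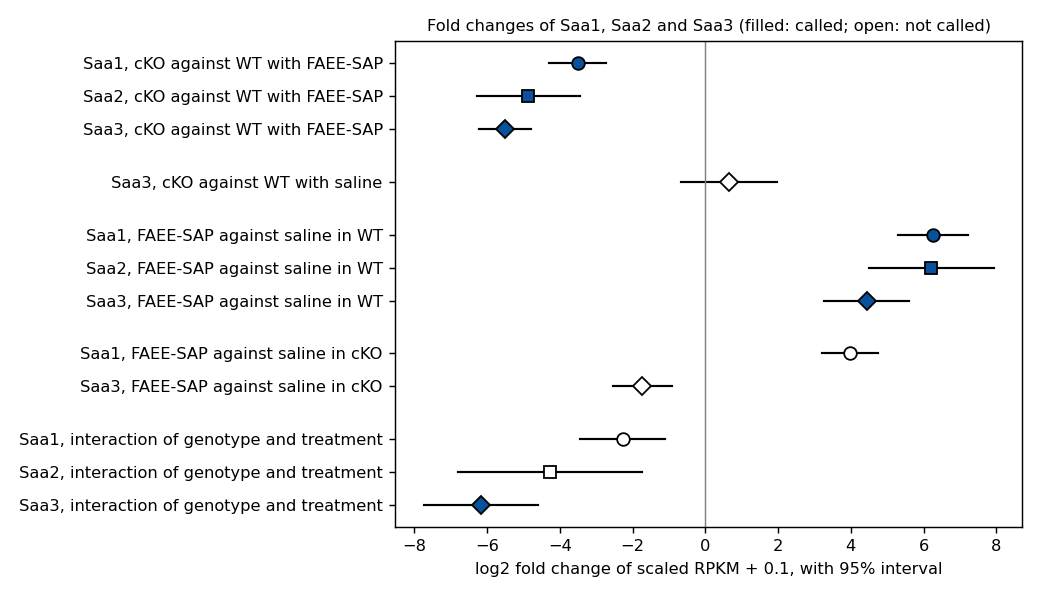
Log2 fold changes of Saa1, Saa2, and Saa3 with 95% intervals from limma, by comparison, where filled symbols passed an adjusted p of 0.05 and a 2-fold change and open symbols did not. The values for cKO against WT with FAEE-SAP lie between -5.51 and -3.51, and those for FAEE-SAP against saline in WT between 4.43 and 6.25.

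In WT mice, the comparison of FAEE-SAP with saline gives the response of the normal pancreas. Saa1 was at 0.0795 and 0.208 scaled RPKM with saline, which is 1 and 3 reads, and at 13.3 and 23.8 with FAEE-SAP, which is 377 and 918 reads. Saa2 went from 0.297 and 0 (4 reads and 0 reads) to 10.01 and 21.4 (303 and 884 reads). Saa3 was the only member measured well above the detection limit at rest, at 1.60 and 4.69 with saline, and it reached 56.6 and 66.4. The FAEE-SAP libraries of WT were above its saline libraries for each of these genes, as was so for 29.7% of the genes tested. In the FAEE-SAP libraries Saa3 was 165th and 151st in RPKM among all genes of its library, Saa1 was 584th and 327th, and Saa2 was 822nd and 372nd.

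Saa1, Saa2, and Saa3 rose in WT, where 6.89% of 10894 genes were called and 3.11% were called higher. Saa1 and Saa2 passed the minimum for testing only through the FAEE-SAP libraries, where they are high, so their calls follow in part from the filter. The log2 fold change was 6.25 for Saa1 (SE 0.39, limma adjusted p = 0.00256), the third highest of all genes tested, 6.21 for Saa2 (SE 0.70, limma adjusted p = 0.0104), the fourth highest, and 4.43 for Saa3 (SE 0.47, limma adjusted p = 0.00884), the 16th highest. The 95% interval from limma was 5.29 to 7.21 for Saa1, 4.49 to 7.93 for Saa2, and 3.26 to 5.60 for Saa3. As a ratio of group means, Saa3 rose 19.6-fold (17.3 to 21.3, a 95% interval for counting error only). The saline libraries bore on these values, and without WT saline replicate 1 the log2 fold change was 3.68 for Saa3 and 7.20 for Saa2, and without replicate 2 it was 5.18 and 5.21. Pseudocounts of 1 and 0.01 gave 4.04 and 6.99 for Saa1 and 3.79 and 8.05 for Saa2. With so few reads at rest, the ratios of Saa1 (129-fold, counting interval 50.9 to 481) and Saa2 (106-fold, counting interval 46.7 to 441) are known within wide limits. Without WT FAEE-SAP replicate 1, Saa3 had an adjusted p of 0.0531, and without replicate 2 of 0.0955. With either of them left out, Saa1 and Saa2 no longer had 2 libraries over the minimum of 0.5 RPKM and could not be tested.

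In cKO mice, Saa1 and Saa3 differed in the direction of their values after FAEE-SAP. Saa1 had no reads in either saline library and 28 and 25 reads with FAEE-SAP, at 1.59 and 1.36 scaled RPKM. Against the level that 3 reads would give in the saline libraries, this is at least 6.62-fold higher. Saa2 was at 0 and 0.0734 with saline (0 reads and 1 read) and at 0.743 and 0.203 with FAEE-SAP (14 and 4 reads), a ratio of 12.9 with a counting interval from 2.13 to 563. Saa3 was at 5.06 and 3.79 with saline and at 0.943 and 1.63 with FAEE-SAP. Both cKO FAEE-SAP libraries were thus lower in Saa3 than both cKO saline libraries, whereas both were higher in Saa1. For Saa2 this is not shown, since cKO FAEE-SAP replicate 2, at 4 reads, was below the level that 3 reads would give in cKO saline replicate 2 (0.220). Of the genes tested in cKO, 23.6% were lower and 19.6% were higher in both FAEE-SAP libraries than in both saline libraries.

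None of these differences in cKO passed the test. Of 9423 genes tested, 0.0531% were called, which is 5 genes, all higher, and voom called 4. At an unadjusted p under 0.05 both tested Saa genes passed, as did 9.56% of all genes. Saa1 had a log2 fold change of 3.97 (SE 0.30, limma adjusted p = 0.0639). Saa1 passed the minimum for testing only through the FAEE-SAP libraries, where it is high. With 0 reads in both saline libraries its value is set by the pseudocount, and it was 1.31 with a pseudocount of 1, 7.21 with 0.01, and 5.33 with voom. It was called with all 8 libraries in one model (limma adjusted p = 0.00864), without the intensity trend (0.0178), on values as deposited (0.0236), and with the replicate number as a block (0.0153). Over all alternatives run for this gene the adjusted p of Saa1 lay between 0.00864 and 0.283. Saa3 had a log2 fold change of -1.74 (SE 0.31, 95% interval -2.55 to -0.93, limma adjusted p = 0.274), the 22nd lowest value, and its ratio of FAEE-SAP to saline means was 0.291 (counting interval 0.245 to 0.342). Its adjusted p lay between 0.0518 and 0.641 over the alternatives. Without cKO saline replicate 1, the library with enterocyte transcripts, the value for Saa3 was -1.53 and the adjusted p 0.641. Saa2 was below the minimum for testing.

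Whether the response to FAEE-SAP differed between the genotypes was tested as an interaction over all 8 libraries. For Saa3 the response in cKO minus that in WT was -6.17 on the log2 scale (SE 0.67, 95% interval -7.74 to -4.59, limma adjusted p = 0.0413), the second lowest value of 11133 genes, where 0.0719% of genes were called and 0.0269% were called lower. The value for Saa2 was -4.27 (SE 1.08, limma adjusted p = 0.230) and for Saa1 -2.28 (SE 0.50, limma adjusted p = 0.189), neither called. Both cKO saline libraries had 0 reads of Saa1, so its value depends on the pseudocount, and it was 0.22 with a pseudocount of 0.01. The call for Saa3 was lost when any library other than WT saline replicate 2 was left out. Its adjusted p was 0.0751 without WT saline replicate 1, 0.109 and 0.113 without cKO saline replicates 1 and 2, 0.0822 and 0.210 without WT FAEE-SAP replicates 1 and 2, and 0.145 and 0.124 without cKO FAEE-SAP replicates 1 and 2. It was also lost with no filter, with a pseudocount of 0.01, without the intensity trend, and with the replicate number as a block (0.107). The value itself was -5.42 without WT saline replicate 1, -6.91 without replicate 2, and -5.27 with a pseudocount of 1, and it was below 0 in every fit run.

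With saline, cKO and WT were compared to see whether the genotypes differed at rest. Saa3 was at 1.60 and 4.69 scaled RPKM in WT and at 5.06 and 3.79 in cKO, so the libraries overlapped. The log2 fold change was 0.65 (SE 0.51, 95% interval -0.67 to 1.97, limma adjusted p = 0.9999), and it was -0.10 without WT saline replicate 1, the lowest of the 4 saline libraries, and 1.40 without WT saline replicate 2. Of 8715 genes 0.0% were called, with 198 (2.27%) at an unadjusted p under 0.05, Saa3 not among them, and voom also called 0 genes. The interval includes a 2-fold higher level in cKO, so a difference of that size at rest was not detectable with these libraries. Saa1 had 4 reads in WT and 0 in cKO, and Saa2 had 4 reads in WT and 1 in cKO, too few to compare.

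Across the groups, Saa3 was highest in WT FAEE-SAP (61.5 ± 6.94 scaled RPKM, SD, n = 2), followed by cKO saline (4.42 ± 0.90), WT saline (3.14 ± 2.18), and cKO FAEE-SAP (1.29 ± 0.484). The WT saline libraries overlapped with those of cKO saline above and of cKO FAEE-SAP below, while cKO saline and cKO FAEE-SAP did not overlap. Saa1 was 18.6 ± 7.39 in WT FAEE-SAP, 1.48 ± 0.163 in cKO FAEE-SAP, 0.144 ± 0.0910 in WT saline, and 0 in cKO saline, and the last 2 groups are not distinguishable at 3 reads or fewer per library. Saa2 was 15.7 ± 8.05 in WT FAEE-SAP, 0.473 ± 0.382 in cKO FAEE-SAP, 0.148 ± 0.210 in WT saline, and 0.0367 ± 0.0519 in cKO saline, and the last 3 groups overlap in part. Saa4 had 2 reads in WT FAEE-SAP replicate 2 and none in the other 7 libraries. A count of 0 allows a level of up to 0.0309 to 0.0694 scaled RPKM of Saa4 in those libraries. The pseudogene Saa-ps was at 0 in all 8.

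To take the division of reads between the near copies out of the comparison, Saa1 and Saa2 were added together. With saline their sum was 0.376 and 0.208 scaled RPKM in WT and 0 and 0.0734 in cKO. With FAEE-SAP the WT libraries had 23.3 and 45.2, and the cKO libraries had 2.34 and 1.56. With FAEE-SAP both genotypes were higher in the sum than either was with saline, and the WT libraries were higher than the cKO libraries.

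The make-up of the family was described by the share of each gene. Low RPKM values of Saa1 and Saa2 were within 0.00987 and 0.120 of whole reads for exonic lengths of 609 and 652 bases, the exons of their coding transcripts, but those of Saa3 within 0.139 for 2606 bases, although the transcripts of Saa3 are annotated with 555, 2200, and 494 bases. RPKM therefore sets Saa3 low against Saa1 and Saa2 to the extent that its reads came from the 555-base transcript, which these values do not show. The shares given here are of reads, worked out from RPKM with these lengths, and a longer transcript gives more reads, so they do not rank the genes by transcript number. Saa3 took 94.5% and 99.0% of the Saa reads in WT saline, and 100% and 99.5% in cKO saline. In WT FAEE-SAP it took 91.0% and 85.9%, of 7523 and 12766 reads. In cKO FAEE-SAP it took 62.8% (95% exact binomial interval 53.2% to 71.7%, 113 reads) and 81.5% (74.6% to 87.3%, 157 reads), the lowest shares of the 8 libraries, and Saa1 took 24.8% and 15.9%. The intervals cover counting error only. Within a library no scaling enters these shares. As shares of the summed RPKM, which is per length, Saa3 made up at least 80.9% with saline. With FAEE-SAP it made up 70.8% and 59.5% in WT, against 28.8% and 51.003% in cKO. On that scale Saa1 was the largest member in cKO FAEE-SAP replicate 1, at 48.6%, and it was at 42.6% in replicate 2. The shares were not tested between groups.

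**Figure D3:**
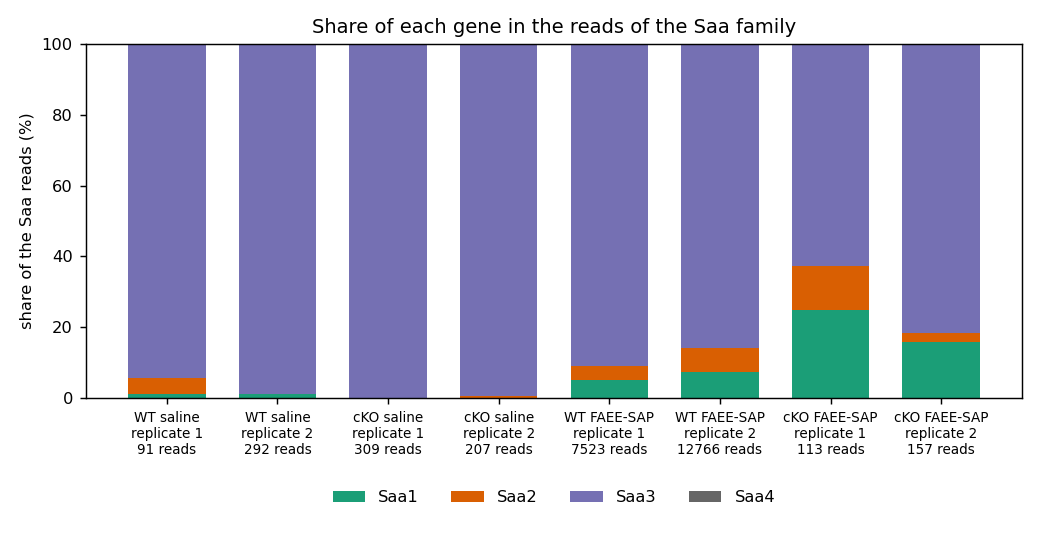
Share of each Saa gene, in percent, in the reads of the family for each library, with the number of reads below each bar. Saa3 makes up at least 94.5% of the reads in the saline libraries and 62.8% and 81.5% in the cKO FAEE-SAP libraries, where the family has 113 and 157 reads.

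The neighbours of the family were compared in the same way. Of 12 listed genes in or within 200 kb of the cluster, the pseudogene Saa-ps among them, 6 were tested with FAEE-SAP. None was called in cKO against WT, beside 1.17% of all genes tested, and at that share nothing can be read from the count. Their log2 fold changes ran from -0.69 to 0.52, with a median of -0.03. In WT, FAEE-SAP against saline, the same 6 genes had values from -0.35 to 0.70. None was called, beside 6.89% of all genes tested, and from so few genes nothing can be read from that count either. Saal1, the gene next to Saa3 at 1318 bases, did not exceed 0.243 scaled RPKM and was not tested. Hps5, the neighbour of Saa2 at 6153 bases and a subunit of a complex that forms lysosome-related organelles, was at 0.534 and 0.520 scaled RPKM in WT FAEE-SAP and at 0.719 and 0.475 in cKO FAEE-SAP, with a log2 fold change of 0.13 (SE 0.29, limma adjusted p = 0.845).

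**Figure D4:**
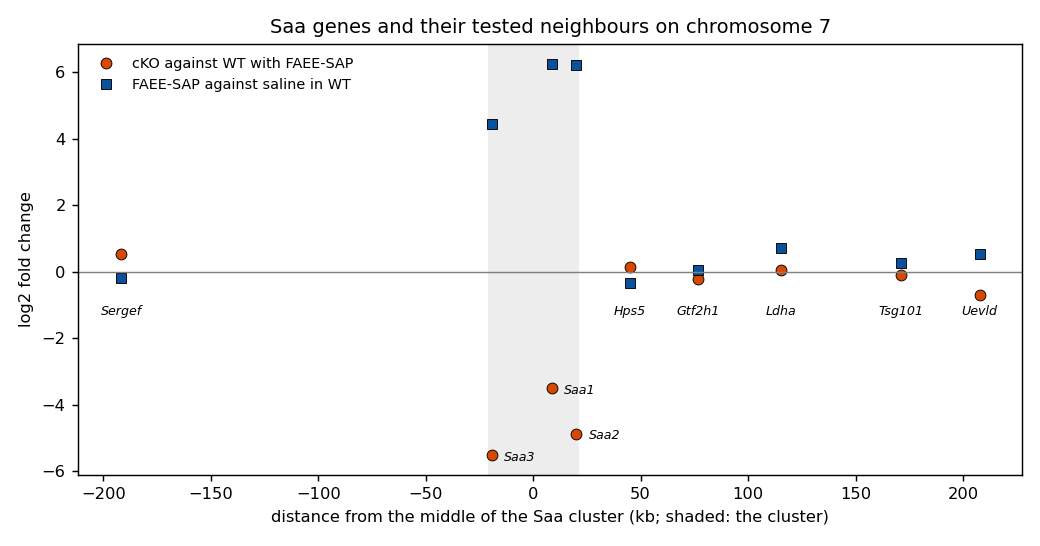
Log2 fold changes of the Saa genes and of the 6 tested neighbours against the distance in kb from the middle of the Saa cluster, for cKO against WT with FAEE-SAP (circles) and FAEE-SAP against saline in WT (squares). The Saa genes lie at -5.51 to -3.51 and at 4.43 to 6.25, and the neighbours between -0.69 and 0.70.

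The cytokines known to induce Saa genes were low in these libraries. Of 10 listed, 4 were tested with FAEE-SAP. Il6 did not exceed 0.248 scaled RPKM in any library and was below the minimum for testing. It was at 0.248 and 0.117 in WT FAEE-SAP, at 0.0570 and 0.0137 in cKO FAEE-SAP, and at most at 0.0592 with saline. By qPCR, the study reports lower Il6 in cKO than in WT pancreas with FAEE-SAP. Il1b, which encodes IL-1 beta, was at 0 and 0.111 in WT saline and at 1.36 and 1.32 in WT FAEE-SAP, and it rose in WT with a log2 fold change of 3.31 (SE 0.40, limma adjusted p = 0.0121). Il1a, which encodes IL-1 alpha, also rose in WT, by 1.54 (SE 0.27, limma adjusted p = 0.0322), from 0.0490 and 0.0428 to 0.338 and 0.312. Of all genes tested in WT, 3.11% were called higher. Il1a and Tnf reached the minimum for testing only in the WT FAEE-SAP libraries, and Il1b in those and 1 cKO FAEE-SAP library, so the direction of their values follows in part from the filter. In cKO against WT with FAEE-SAP none of the 4 was called, beside 1.17% of all genes, and at that share nothing can be read from it. Il1b was at 0.599 and 0.226 in cKO FAEE-SAP, lower than in both WT libraries (log2 fold change -1.59, SE 0.40, limma adjusted p = 0.133). Clcf1, an IL-6 family cytokine and the highest of the list in mean RPKM, was at 0.940 and 0.765 in WT FAEE-SAP and at 0.970 and 0.527 in cKO FAEE-SAP, where the libraries overlapped.

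Among 10 tested receptor genes for these cytokines, Tnfrsf1a, the main receptor for TNF, rose in WT from 5.75 and 4.74 to 16.1 and 20.9 scaled RPKM (log2 fold change 1.79, SE 0.21, limma adjusted p = 0.0114), the one receptor called, beside 3.11% of all genes called higher. It was at 6.84 and 7.14 in cKO FAEE-SAP, below both WT FAEE-SAP libraries, with a log2 fold change of -1.38 (SE 0.21, limma adjusted p = 0.0529). No receptor was called in cKO against WT, beside 1.17% of all genes, and at that share nothing can be read from it. Lifr, the receptor for LIF and the highest of the list in mean RPKM, ran from 8.77 to 20.7 over all 8 libraries.

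Of 9 transcription factors that act on Saa promoters, 3 rose in WT with FAEE-SAP, where 3.11% of all genes tested were called higher. Rela, an NF-kB subunit and the highest of the list in mean RPKM, went from 6.04 and 4.67 to 15.2 and 24.7 scaled RPKM (log2 fold change 1.85, SE 0.28, limma adjusted p = 0.0234). Stat3, which carries the IL-6 signal to the nucleus, had a log2 fold change of 1.77 (SE 0.36, limma adjusted p = 0.0425), and Cebpb of 1.32 (SE 0.24, limma adjusted p = 0.0340). In cKO against WT with FAEE-SAP, 8 of the 9 had values below 0, with a median of -0.62 beside 0.00 over all genes. None of the 9 was called, beside 1.17% of all genes, and at that share nothing can be read from it. Rela was at 4.84 and 6.42 in cKO FAEE-SAP, within the range of the saline libraries, and its log2 fold change against WT was -1.78 (SE 0.30, limma adjusted p = 0.0691).

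Some genes on a list of possible receptors and coreceptors of serum amyloid A differed in the same comparisons as the Saa genes. Whether serum amyloid A binds each of them was not tested. Of 8 tested, Fpr1, Fpr2, and Cd14 fell in cKO against WT with FAEE-SAP, where 0.354% of all genes were called lower, and rose in WT after FAEE-SAP, where 3.11% were called higher. These comparisons share the WT FAEE-SAP libraries. Fpr1, a formyl peptide receptor of neutrophils, was at 2.64 and 2.01 scaled RPKM in WT FAEE-SAP and at 0.0785 and 0.125 in cKO FAEE-SAP (log2 fold change -3.58, SE 0.28, limma adjusted p = 0.0149). Fpr2, the formyl peptide receptor best known to bind serum amyloid A, was at 1.48 and 1.92 in WT and at 0.187 and 0.128 in cKO (-2.81, SE 0.28, limma adjusted p = 0.0203). Fpr1 and Fpr2 reached the minimum for testing only in the WT FAEE-SAP libraries, where they are high, so nothing is read from the count. Cd14, a coreceptor of Toll-like receptors, was at 14.3 and 12.6 in WT and at 2.40 and 2.74 in cKO (-2.34, SE 0.20, limma adjusted p = 0.0150). In the interaction Fpr1 was called (-4.60, SE 0.43, limma adjusted p = 0.0380), where 0.0719% of all genes were called and 0.0269% were called lower. Cd36, a scavenger receptor and the highest of the list in mean RPKM, ran from 4.58 to 9.87 over the 8 libraries and was not called in any comparison.

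Among 9 tested genes of high-density lipoprotein and of serum amyloid A turnover, Lcat, which esterifies cholesterol on the lipoprotein, was the one gene called in cKO against WT with FAEE-SAP, beside 1.17% of all genes tested. It was at 0.963 and 0.753 scaled RPKM in WT FAEE-SAP and at 3.38 and 4.67 in cKO FAEE-SAP (log2 fold change 2.10, SE 0.26, limma adjusted p = 0.0352), opposite in direction to the Saa genes. Lcat fell in WT with FAEE-SAP (-2.74, SE 0.39, limma adjusted p = 0.0194), and Ctsl, a lysosomal protease, rose (1.37, SE 0.24, limma adjusted p = 0.0329), in a comparison that called 6.89% of all genes. Apoa1, the main protein of the lipoprotein, was at 10.5 in cKO saline replicate 1 and at most 0.157 in the other libraries.

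Markers of the cell types that could carry these transcripts were summed in each library. Hepatocyte markers, 10 genes, summed to 12.2 to 17.8 scaled RPKM with saline, 4.14 to 4.63 in WT FAEE-SAP, and 7.02 to 9.88 in cKO FAEE-SAP. Most of the sum came from Ttr, which islets also express, and Cyp2e1, and the markers did not move together. In the WT FAEE-SAP libraries 3 of the 10 reached 0.5 RPKM and 2 were at 0. Alb, which encodes albumin, was at 0.806 and 0.162 in WT saline and at 0.0644 and 0 in WT FAEE-SAP. Ahsg, a plasma protein of the liver, was at 0.197 and 0.0860 in WT saline and at 0.424 and 0.707 in WT FAEE-SAP (log2 fold change 1.47, limma adjusted p = 0.0688). Fgb, a fibrinogen chain and itself an acute-phase gene, was at 0.130 and 0.186 in WT FAEE-SAP, against 0 in both cKO FAEE-SAP libraries. The saline libraries had 0.0254 and 0 of it in WT, and 0.157 and 0.0126 in cKO. Neutrophil markers, 8 genes, summed to 1.30 to 3.69 with saline, 54.1 to 59.4 in WT FAEE-SAP, and 12.8 to 19.9 in cKO FAEE-SAP, and the defining marker Ly6g was at 0 in 5 of the 8 libraries and at most at 0.0670. No neutrophil marker reached 0.5 RPKM in both WT saline libraries, so those tested passed the minimum through the FAEE-SAP libraries and a count of those that rose in WT says little. Most of the sum came from S100a9, with FAEE-SAP at 33.1 and 29.2 in WT against 12.1 and 7.62 in cKO, and S100a8, at 18.6 and 15.8 in WT against 4.39 and 2.63 in cKO. With FAEE-SAP, S100a8 and Retnlg, 2 of 6 tested markers, fell in cKO against WT, where 0.354% of all genes were called lower. The receptor Csf3r was at 0.877 and 0.818 in WT FAEE-SAP and at 1.06 and 0.560 in cKO FAEE-SAP (log2 fold change -0.12), Cxcr2 had a log2 fold change of -0.55 and was not called, and Mpo was at 0 in both WT FAEE-SAP libraries and at 0.101 and 0.155 in cKO FAEE-SAP. Macrophage markers, 8 genes, summed to 72.9 to 109 in WT and 86.3 to 124 in cKO, and the largest part was Lyz2, at 38.1 to 60.4. The others did not move together. With FAEE-SAP the complement gene C1qa was at 10.3 and 9.13 in WT against 20.3 and 17.3 in cKO, and the mannose receptor Mrc1 at 0.994 and 2.25 against 4.15 and 4.22, neither called, whereas Cd14, also on this list, was lower in cKO. Mesothelial markers, 7 genes, summed to 7.91 to 13.0 over all libraries, of which the largest part was Krt19, also a ductal marker, at 11.5 and 11.05 in WT FAEE-SAP and 4.001 to 7.56 in the other libraries. Upk3b, Lrrn4, and Gpm6a ran the other way and were lowest in WT FAEE-SAP, where Upk3b was at 0.134 and 0.188, against 0.357 to 2.59 in the other libraries. Adipocyte markers, 8 genes, summed with saline to 34.8 and 65.6 in WT and to 64.1 and 36.1 in cKO, and with FAEE-SAP to 80.3 and 112 in WT and to 90.9 and 23.3 in cKO. Acinar markers, 8 genes, were lowest in WT FAEE-SAP, at a sum of 55793 to 56063 beside 137695 to 227590 in the other groups. In WT saline, cKO saline, and WT FAEE-SAP, the library with the higher adipocyte sum had the higher Saa3 level, and in cKO FAEE-SAP it had the lower one. Ductal markers, 6 genes, summed to 11.8 to 32.1 with saline, 55.9 to 59.0 in WT FAEE-SAP, and 44.2 to 46.6 in cKO FAEE-SAP, mostly from Spp1, which macrophages also express, and Krt19. Fibroblast markers, 6 genes, summed to 49.1 to 62.7 over all libraries. The part of these cell types in the Saa values was not tested.

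**Figure D5:**
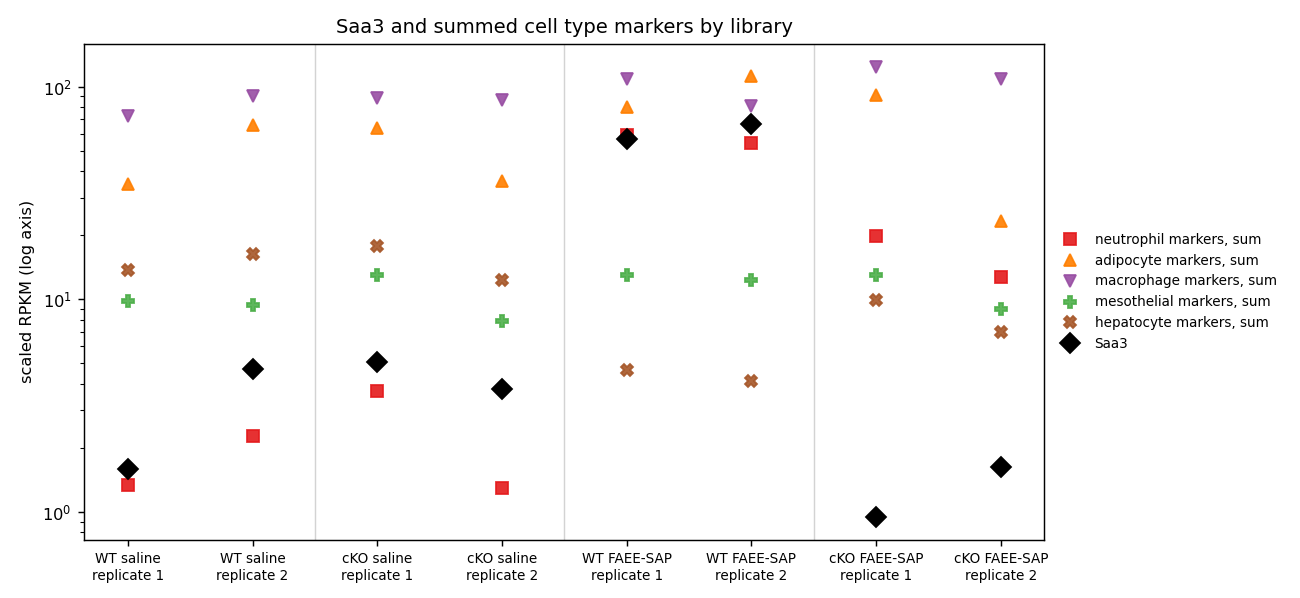
Scaled RPKM of Saa3 (black) and the summed scaled RPKM of 5 sets of cell type markers in each library, on a log axis. Neutrophil markers sum to 54.1 to 59.4 in WT FAEE-SAP and 12.8 to 19.9 in cKO FAEE-SAP, while Saa3 is at 56.6 to 66.4 and 0.943 to 1.63, and the macrophage markers lie between 72.9 and 124 in all libraries.

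The 5 genes whose levels followed the mean of Saa1, Saa2, and Saa3 most closely were Ebna1bp2, Leprot, Fut2, Coq8b, and Ceacam1, with Pearson correlations of 0.988 to 0.994 over the 8 libraries. Fut2, a fucosyltransferase of mucosal epithelia, was at 3.59 and 4.99 scaled RPKM in WT FAEE-SAP and at 0.161 and 0.173 in cKO FAEE-SAP. Leprot, which shares its start with the leptin receptor gene, was at 22.8 and 26.6 in WT FAEE-SAP and at 7.30 and 7.16 in cKO FAEE-SAP. Ceacam1, an epithelial adhesion molecule, was at 16.7 and 17.3 and at 4.11 and 4.85 in the same groups. Of the 7373 genes compared, 302 had a correlation over 0.9. Within the family the correlation was 0.93 between Saa1 and Saa2, 0.75 between Saa2 and Saa3, and 0.67 between Saa1 and Saa3. These values describe 8 libraries that share 4 groups and their scaling, and the 2 WT FAEE-SAP libraries were the highest of the 8 for each of the 5 genes.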

How the data were processed

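RNA-Seq of 8 pancreas libraries was analysed from the RPKM that the authors deposited for 48709 genes. Per the study's methods, a directional kit was used, paired-end reads were filtered with fastp, and CLC Genomics Workbench mapped them to GRCm38.p6. The way RPKM was computed is not given in the sources used here. Gene lengths of GENCODE vM21 (95.1% of genes matched by symbol) turned low RPKM values into whole reads within 0.1 for 84.2% to 85.5% of values and gave library totals of 22.9 to 37.7 M reads. Reads are therefore approximate.

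RPKM was scaled by median of ratios over all 8 libraries. Genes with at least 0.5 RPKM in at least 2 libraries of a comparison were tested as log2(scaled RPKM + 0.1) with limma 3.58.1 (R 4.3.3, intensity trend, Benjamini-Hochberg adjustment), which understates the change of low genes. A gene was called at an adjusted p under 0.05 and a 2-fold change. The study's methods name no adjustment for their p threshold, and an unadjusted p was an alternative here. The procedure was tested on simulated data with known changes in genes of higher level only. That test does not cover genes with few reads in a group, such as Saa1 and Saa2. Motifs and identities were computed with Biopython 1.88, and the C/EBP letters were chosen after the promoters were seen.

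The members, gene lists, and marker lists were chosen with earlier results of these data known. Named were the 4 members, list genes that were called, the list gene highest in RPKM for 4 lists, the nearest neighbours of the locus, and the 5 genes of most like pattern. Il6, Tnf, Apoa1, Alb, Ahsg, Fgb, Ttr, Cyp2e1, Ly6g, S100a9, C1qa, Mrc1, Lyz2, Krt19, Upk3b, Lrrn4, Gpm6a, Spp1, Csf3r, Cxcr2, Mpo, and Cpa1 were named after their values were seen.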

Additional observations from a re-analysis of the deposited data

Results flagged for a closer look

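The response of Saa3 to FAEE-SAP differed between the genotypes by the test of the interaction, at -6.17 on the log2 scale (cKO minus WT, adjusted p = 0.0413, limma with Benjamini-Hochberg adjustment). Both WT libraries with FAEE-SAP, at 56.6 and 66.4 scaled RPKM, were higher than both WT saline libraries, at 1.60 and 4.69. Both cKO libraries with FAEE-SAP, at 0.943 and 1.63, were lower than both cKO saline libraries, at 5.06 and 3.79. The lower value in cKO did not pass the test by itself (adjusted p = 0.274 by the same method), and the interaction held when 1 of the 8 libraries, WT saline replicate 2, was left out and failed (adjusted p = 0.0751 to 0.210) when any other was. Saa1 had more reads with FAEE-SAP than with saline in both genotypes, but its difference in cKO was not called, and Saa2 was too low in cKO to be tested.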

How the results depend on the processing

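Of 210 values of the 12 gene results under other settings, 208 kept their direction. The exceptions were Saa3 in cKO against WT with saline without WT saline replicate 1 (-0.10, beside 1.40 without replicate 2) and Saa1 in the interaction with a pseudocount of 0.01 (0.22). The cause of other changes was not tested. Of Saa genes called in cKO against WT with FAEE-SAP (3), 0 were called with no filter and 1 with voom, and 0 to 3 when 1 library was left out. FAEE-SAP against saline in WT called 3 under all other settings and 0 to 3 when 1 library was left out. In cKO (0 called), 1 was called on values as deposited, without the intensity trend, with all 8 libraries in one model, and with the replicate block, and 2 at an unadjusted p, and leaving out a library gave 0. In the interaction (1 called), 3 were called on values as deposited and at an unadjusted p, 2 with a pseudocount of 1, and 0 with no filter, a pseudocount of 0.01, no intensity trend, or the replicate block, and 0 to 1 when a library was left out. Saa genes called with saline stayed at 0. Where an arm was left with 1 library, it was assumed to vary like the others. On values as deposited, all genes had a median log2 fold change of -0.91 (cKO against WT with FAEE-SAP), 1.24 (FAEE-SAP in WT), 0.57 (FAEE-SAP in cKO), -0.25 (saline), and -0.63 (interaction), and the Saa genes kept their direction. The deviations of same-numbered libraries from their group means correlated across genes at 0.31 between the genotypes with FAEE-SAP and at -0.39 with saline. Between the treatments these deviations correlated at -0.18 in WT and 0.45 in cKO, so the numbers were not taken as pairs. With the numbers of the WT saline libraries exchanged in the block, chosen after seeing the data, 0 Saa genes were called with saline, 3 with FAEE-SAP in WT, and 1 in the interaction. Saa1 and Saa2 in saline rest on 4 reads or fewer per library, which limits any comparison at rest.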
